A study of Rattus norvegicus with 16 samples.

Results

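The 7 genes of the glucocorticoid response were followed here, out of the 35849 genes measured by RNA sequencing in the renal tissue of 16 rats. They are Nr3c1, Hsd11b1, Hsd11b2, Fkbp5, Tsc22d3, Zbtb16 and Klf9, taken by gene symbol from the deposited table, and all 7 members passed the filter on low counts in every comparison. The animals were male inbred SD rats, 6 to 8 weeks old at the start, with 4 rats in each of 4 groups, called normal, DN (diabetic nephropathy) and, after the dose, SIN (20 mg/kg) or SIN (40 mg/kg). The DN group and both SIN groups shared a single injection of streptozotocin (STZ), a toxin of pancreatic beta cells, at 45 mg/kg, a blood glucose over 16.7 mmol/L a week later, and a diet high in glucose and fat. The normal group received citrate buffer and a normal diet, so the STZ and the diet cannot be told apart in any comparison with it. SIN is sinomenine, an alkaloid of the plant Sinomenium acutum, which was given by gavage every day for 8 weeks, while the DN group received vehicle.

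Glucocorticoids, corticosterone in the rat, bind the glucocorticoid receptor in the cytoplasm, where chaperones hold it ready. The loaded receptor moves to the nucleus and switches target genes on or off. In the kidney the steroid is also made and destroyed locally, since one enzyme regenerates corticosterone from its inert form and another inactivates it in the distal nephron, where it would otherwise occupy the mineralocorticoid receptor. Circulating corticosterone follows a daily rhythm and rises under stress. Nr3c1 encodes the receptor, Hsd11b1 the regenerating enzyme and Hsd11b2 the inactivating enzyme. The other 4 members are well-known receptor targets. Fkbp5 encodes a co-chaperone that lowers the receptor's affinity for its ligand, Tsc22d3 the anti-inflammatory protein GILZ, and Zbtb16 and Klf9 transcription factors.

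Libraries held 19616312 to 25217030 estimated counts in all, and the fewest for any member was 50, for Zbtb16 in a DN rat. Levels are in CPM, the share of a library's counts that a gene took, scaled by TMM factors over all 16 rats, and fold changes are log2 values with their standard errors. Library serial numbers were consecutive in each group, and therefore library batch and treatment cannot be told apart. The time of day at which tissue was taken is not given in the sources used here, and corticosterone itself was not analysed. The 5 proximal tubule markers, Lrp2, Cubn, Slc34a1, Slc5a2 and Slc7a13, summed to between 5778 and 10992 CPM in every rat, so the kidney carried its defining markers in all 16 libraries. By group the sums were 8285 to 10992 CPM in normal and 5778 to 9036 CPM in DN rats. Among the 5, Slc7a13 fell in DN over normal, by 1.51 ± 0.13 (SE, log2), and Cubn was higher, by 0.45 ± 0.20. DN replicate 3 stood apart from the other DN rats. Its smooth muscle markers (Acta2, Myh11 and Des) summed to 456 CPM, where DN replicates 1, 2 and 4 had 84.6 to 110 CPM, and its urothelial markers (Upk1a, Upk2, Upk3a, Krt5 and Krt14) to 96.2 CPM against 1.57 to 9.05 CPM. To a lesser degree normal replicate 1 stood apart from the other normal rats. Its smooth muscle markers summed to 130 CPM against 56.6 to 78.9 CPM. Its urothelial markers summed to 44.7 CPM against 3.39 to 7.64 CPM. Fold changes of the 7 genes and counts of the pathway lists against the DN group are also given without DN replicate 3, while those of marker genes were not refitted.

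Per kilobase of gene length, the mean level over 16 rats was highest for Hsd11b1, at 174 CPM per kilobase, and next for Hsd11b2, at 109. Tsc22d3 followed at 37.3, Fkbp5 at 16.02, Nr3c1 at 10.7, Klf9 at 9.71 and Zbtb16 at 8.63 CPM per kilobase. Hsd11b1 had fractional counts in 16 of 16 rats, Tsc22d3 in 13 and Zbtb16 in 3, as counting that splits shared reads gives, and their levels are less certain. Counts of the other 4 members were whole.

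Sequences upstream of the start were compared because Fkbp5, Tsc22d3 and Klf9 fell together in the DN group. RefSeq promoter windows on the GRCr8 build, which reach from 250 bases before to 50 bases after a start, were given for 4 of the 7 members, Nr3c1, Fkbp5, Tsc22d3 and Klf9, in 7 windows. No window was given under the symbols Hsd11b1, Hsd11b2 and Zbtb16. The 250 bases before the start of Fkbp5 lie at chr20:6543556-6543805 on the minus strand, those of Klf9 at chr1:230126396-230126645 on the plus strand, and those of the last of the 3 Tsc22d3 starts at chrX:109010035-109010284 on the minus strand. Capitals mark a GC box (GGGCGG, or CCGCCC on the other strand) or a TATA box (TATAAA, either strand).
Fkbp5: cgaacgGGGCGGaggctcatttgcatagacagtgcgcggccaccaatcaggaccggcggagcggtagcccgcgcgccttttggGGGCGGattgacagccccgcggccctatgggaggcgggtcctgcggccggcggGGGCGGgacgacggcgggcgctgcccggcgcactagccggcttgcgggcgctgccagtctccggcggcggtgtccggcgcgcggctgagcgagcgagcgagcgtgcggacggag
Tsc22d3: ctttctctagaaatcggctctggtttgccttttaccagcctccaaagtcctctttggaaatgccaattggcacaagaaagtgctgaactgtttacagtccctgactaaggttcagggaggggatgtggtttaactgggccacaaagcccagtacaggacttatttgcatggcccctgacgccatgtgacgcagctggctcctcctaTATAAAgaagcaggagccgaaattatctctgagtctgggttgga
Klf9: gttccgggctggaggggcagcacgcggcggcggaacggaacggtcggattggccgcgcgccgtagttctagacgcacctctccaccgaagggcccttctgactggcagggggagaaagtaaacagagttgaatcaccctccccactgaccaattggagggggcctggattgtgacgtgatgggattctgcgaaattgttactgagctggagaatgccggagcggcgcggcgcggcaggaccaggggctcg
The upstream bases of Fkbp5 were 76.0% G or C, with 3 GC boxes. Those of Klf9 were 63.6% G or C with neither box. Those of this Tsc22d3 start were 49.2% G or C, with a TATA box at position -44 when the base at the start is 0. The other Tsc22d3 starts, whose bases are not printed here, had no TATA box. Upstream of start 2 the bases were 74.4% G or C with 3 GC boxes, and upstream of start 1 there was 1 GC box. The TATA box is therefore a feature of the printed start and not of every Tsc22d3 start. Over whole windows, with the 50 bases after the start included, Fkbp5 held 4 GC boxes. Of all 33469 such whole windows, 33.06% held a GC box and 14.22% a TATA box. The half-site of the glucocorticoid receptor (AGAACA, or TGTTCT on the other strand) was in none of the 7 member windows and in 20.68% of all windows. The full element, AGAACA and TGTTCT with any 3 bases between them, contains that half-site on both strands and was in 0.0149% of all windows. An E-box (CACGTG, the same on both strands), which clock proteins bind, was also in none of the 7 and in 6.42% of all windows. No match means only that these letters are not in these windows. The counts are per gene, and which Tsc22d3 start was used was not analysed.

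Between the DN and normal groups the question was which of these genes the diabetic kidney held at another level. Klf9, Fkbp5 and Tsc22d3 fell in the DN group, and no member rose. In bulk tissue, fewer cells of a type and less RNA per cell cannot be told apart. Klf9 was at 31.5, 38.8, 35.8 and 34.3 CPM in normal replicates 1 to 4 and at 13.1, 19.9, 18.7 and 14.1 CPM in DN replicates 1 to 4. Every DN rat lay below every normal rat. The log2 fold change was -1.09 ± 0.15 (SE), with an adjusted p of 0.00421 by edgeR's quasi-likelihood test with Benjamini-Hochberg adjustment, and the 95% interval ran from -1.42 to -0.76.

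Fkbp5, which the receptor induces in most tissues, was at 87.7, 86.5, 45.1 and 45.4 CPM in the normal rats and at 44.9, 24.1, 41.3 and 25.6 CPM in the DN rats. The DN rats were all lower, but the gap was narrow, since 2 normal rats lay just above the highest DN rat. Expressed as a log2 fold change, this was -0.95 ± 0.29 (SE), adjusted p = 0.0452 by the quasi-likelihood test of edgeR. Tsc22d3 was at 75.5, 91.3, 63.4 and 85.4 CPM in the normal rats and at 56.5, 37.5, 64.7 and 32.1 CPM in the DN rats. DN replicate 3, at 64.7 CPM, was above the lowest normal rat, and the other 3 DN rats were below all of them. The log2 fold change was -0.72 ± 0.22 (SE), adjusted p = 0.0447 by edgeR. Both calls were close to the threshold of 0.05. Leaving out any 1 of the 8 rats took Fkbp5 past it, with adjusted p between 0.0508 and 0.109 by edgeR, and leaving out any rat except DN replicate 3 did so for Tsc22d3, with adjusted p between 0.0584 and 0.113. Klf9 was called without each rat in turn, and its adjusted p over all alternatives was at most 0.0184 by edgeR or DESeq2.

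Zbtb16, a zinc finger factor whose induction by glucocorticoids is strong in many cells, varied most. It was at 49.2, 45.3, 30.6 and 10.5 CPM in the normal rats and at 21.95, 6.27, 19.7 and 2.38 CPM in the DN rats. Normal replicate 4, at 10.5 CPM, lay among the DN rats. The coefficient of variation was 51.7% in the normal group and 77.2% in the DN group, and the log2 fold change of -1.42 ± 0.64 (SE) had an adjusted p of 0.139 by edgeR. Normal replicates 3 and 4 were also the lower normal rats for Fkbp5.

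**Figure D1:**
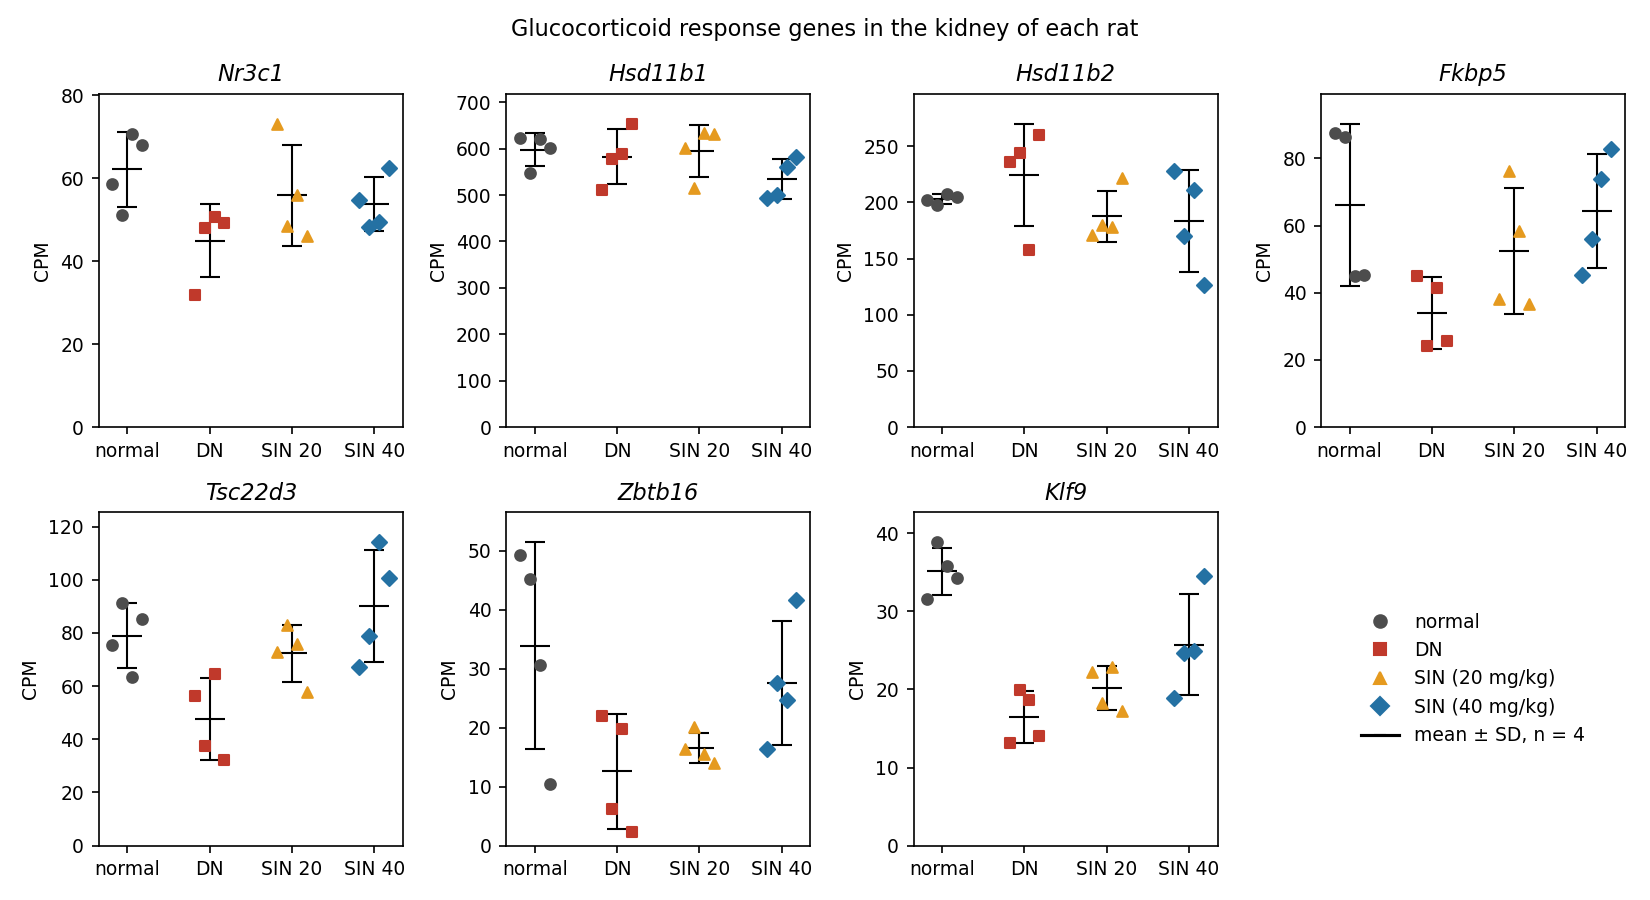
Levels of the 7 genes in CPM (vertical axes, from 0) in each of 16 rats, by group, SIN 20 and SIN 40 standing for 20 and 40 mg/kg; points are rats in the order of replicates 1 to 4, bars are means with SD (n = 4). Klf9 is at 31.5 CPM or more in the normal rats and at 19.9 CPM or less in the DN rats, whereas Hsd11b1 overlaps in all 4 groups.

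The receptor gene Nr3c1 was at 58.6, 51.2, 70.7 and 68.1 CPM in the normal rats and at 31.8, 47.9, 50.7 and 49.2 CPM in the DN rats. All DN rats were lower, although normal replicate 2, at 51.2 CPM, and DN replicate 3, at 50.7 CPM, were almost level. Its log2 fold change of -0.46 ± 0.16 (SE) missed the threshold, with an adjusted p of 0.0703 by the quasi-likelihood test of edgeR, and passed it by DESeq2 (adjusted p = 0.0429) and by edgeR's exact test (adjusted p = 0.0491).

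Hsd11b1 was at 623, 548, 620 and 601 CPM in the normal rats and at 510, 578, 589 and 653 CPM in the DN rats, and the groups overlapped throughout. Its log2 fold change was -0.03 ± 0.11 (SE), with a 95% interval of -0.27 to 0.20. Hsd11b2 was at 202, 197, 207 and 205 CPM in the normal rats, a coefficient of variation of 2.11%, and at 236, 244, 158 and 260 CPM in the DN rats. Of the 4 DN rats, 3 were above every normal rat, and DN replicate 3 was below all of them. The fitted log2 fold change was 0.15 ± 0.14 (SE), adjusted p = 0.474 by edgeR, and without DN replicate 3 it was 0.29, with an unadjusted p of 0.0122 and an adjusted p of 0.0614 by the same edgeR test. The principal cells that express Hsd11b2 were followed by 5 markers, Aqp2, Aqp3, Fxyd4, Scnn1g and Calb1, whose sum was 466 to 1038 CPM in the normal group and 845 to 1944 CPM in the DN group. All 5 of these markers had positive log2 fold changes, and 0 passed the adjusted threshold by edgeR, 2 an unadjusted p of 0.05. At that unadjusted threshold 17.5% of all genes tested were higher. Their part in the level of Hsd11b2 was not tested. The log2 ratio of Hsd11b1 to Hsd11b2 in CPM was 1.56 ± 0.06 (SD, n = 4) among normal rats and 1.40 ± 0.35 (SD, n = 4) among DN rats, with DN replicate 3 at 1.90.

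Counted together, 3 of the 7 genes were called at an adjusted p under 0.05 by edgeR's quasi-likelihood test in the DN group, where 19.5% of the 15775 genes tested were called in either direction. Without DN replicate 3 it was 2 of the 7, Tsc22d3 and Klf9, whose log2 fold changes were then -0.91 and -1.16, with adjusted p of 0.0255 and 0.00962 by edgeR. Those of Fkbp5, Zbtb16, Nr3c1 and Hsd11b1 were then -1.06, -1.72, -0.53 and -0.038, and the adjusted p of Fkbp5 was 0.0544 by edgeR. At an unadjusted p under 0.05 there were 4 lower, Nr3c1 being the other one, against 19.4% of all genes lower, and 0 higher, against 17.5% of all genes higher. Non-overlapping groups were seen for Nr3c1, Fkbp5 and Klf9, 3 of 7, and for 24.3% of all genes. The median log2 fold change of the 7 was -0.72 and that of the 4 targets -1.02, beside 0.0016 for all genes tested.

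SIN at 20 mg/kg was set against vehicle in DN rats to ask whether these levels moved with treatment. Fkbp5 and Tsc22d3 had the higher mean in the SIN (20 mg/kg) group, by 1.54-fold and 1.51-fold, but neither passed the adjusted threshold. Tsc22d3 was at 72.9, 83.1, 75.8 and 57.7 CPM in the SIN (20 mg/kg) rats, of which 3 were above every DN rat, while replicate 4 lay within the DN range. Its log2 fold change over DN was 0.60 ± 0.22 (SE), with an unadjusted p of 0.0204 and an adjusted p of 0.286 by edgeR. Fkbp5 was at 38.1, 76.3, 58.5 and 36.8 CPM, so that 2 rats exceeded the DN group and 2 fell inside it. The log2 fold change was 0.62 ± 0.28 (SE), unadjusted p = 0.0499 and adjusted p = 0.323 by edgeR.

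Zbtb16 was at 16.4, 20.1, 15.5 and 14.1 CPM at this dose, and with a coefficient of variation of 15.6% its 4 rats were closer together than those of the other groups. Klf9 was at 22.2, 18.3, 22.8 and 17.3 CPM, with 2 rats above every DN rat and 2 inside the DN range. Nr3c1, at 73.1, 48.4, 55.9 and 46.2 CPM, likewise had 2 rats above every DN rat and 2 inside their range. Their log2 fold changes over DN were 0.38 ± 0.53 (SE) for Zbtb16, 0.29 ± 0.17 for Klf9 and 0.31 ± 0.19 for Nr3c1, with adjusted p of 0.731, 0.405 and 0.42 by edgeR. The enzymes were at 602, 514, 634 and 631 CPM for Hsd11b1 and at 171, 180, 178 and 222 CPM for Hsd11b2. Both overlapped the DN group, with log2 fold changes of 0.03 ± 0.11 (SE) and -0.26 ± 0.16. Without DN replicate 3 the log2 fold change of Hsd11b2 was -0.40, with an unadjusted p of 0.0088 and an adjusted p of 0.301 by edgeR.

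At this dose 0 of the 7 were called at an adjusted p under 0.05 by the quasi-likelihood test of edgeR, as were 0% of the 15724 genes tested, and DESeq2 and edgeR's exact test also called 0 of the 7. At an unadjusted p under 0.05, 2 were higher, where 9.2% of all genes were, and 0 lower, where 6.24% were. The count of 2 dropped to 0 without DN replicate 2 or without SIN (20 mg/kg) replicate 2, and to 1, Tsc22d3, without DN replicate 4 or SIN (20 mg/kg) replicate 3. Without DN replicate 3 the log2 fold changes of Tsc22d3 and Fkbp5 were 0.78 and 0.73, with unadjusted p of 0.00366 and 0.0411 by edgeR, and those of Zbtb16, Klf9, Nr3c1 and Hsd11b1 were 0.69, 0.36, 0.38 and 0.033. No member separated the groups without overlap, against 8.99% of all genes. The median log2 fold change was 0.31 for the 7 and -0.0074 for all genes tested.

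At 40 mg/kg the means of the 4 targets were 1.57-fold to 2.19-fold those of the DN group, and no member passed the adjusted threshold. Fkbp5 was at 45.3, 55.9, 73.9 and 82.8 CPM in the SIN (40 mg/kg) rats, every one above the highest DN rat at 44.9 CPM, though replicate 1 only just. Its log2 fold change over DN was 0.92 ± 0.25 (SE), a 1.90-fold difference, with an unadjusted p of 0.00417 and an adjusted p of 0.195 by edgeR. Tsc22d3 was at 67.4, 79.0, 114 and 101 CPM, again with every rat above the highest DN rat at 64.7 CPM. The log2 fold change was 0.92 ± 0.24 (SE), unadjusted p = 0.00356 and adjusted p = 0.188 by edgeR. DESeq2 called both genes, with adjusted p of 0.021 and 0.0179, as did edgeR's exact test, with 0.0447 and 0.037. These tools also called more genes in all, 424 and 161 of 15530, where the quasi-likelihood test called 0.

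Klf9 was at 18.9, 24.6, 24.9 and 34.5 CPM, with 3 rats above the DN group and replicate 1 inside it. Its log2 fold change over DN was 0.65 ± 0.20 (SE), unadjusted p = 0.00963 and adjusted p = 0.204 by edgeR. Zbtb16 was at 16.4, 27.7, 24.8 and 41.7 CPM, with 3 rats above the DN group too. The spread of the DN rats left its log2 fold change of 1.13 with a standard error of 0.57 and an adjusted p of 0.341 by edgeR. Replicate 4 was the highest SIN (40 mg/kg) rat for Fkbp5, Zbtb16 and Klf9 and ranked 2 for Tsc22d3, and replicate 1 was the lowest for all 4 targets.

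Nr3c1 was at 54.6, 48.3, 49.4 and 62.6 CPM, with 2 rats inside the DN range and 2 above it. Hsd11b1 was at 495, 500, 560 and 581 CPM and Hsd11b2 at 228, 170, 211 and 126 CPM. SIN (40 mg/kg) replicate 4 had the lowest Hsd11b2 of all 16 rats, and its log2 ratio of Hsd11b1 to Hsd11b2, 2.20, was the highest. The log2 fold changes over DN were 0.26 ± 0.16 (SE) for the receptor, -0.13 ± 0.11 for Hsd11b1 and -0.29 ± 0.20 for Hsd11b2, with adjusted p of 0.415, 0.568 and 0.479 by edgeR. Without DN replicate 3 the value of Hsd11b2 was -0.42, with an unadjusted p of 0.0478 by edgeR.

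In the SIN (40 mg/kg) group 0 of the 7 were called over DN at an adjusted p under 0.05 by the quasi-likelihood test of edgeR, as were 0% of the 15530 genes tested. At an unadjusted p under 0.05, 3 were higher, where 9.9% of all genes were, and 0 lower, where 7.21% were. Groups did not overlap for 2 of the 7, against 10.4% of all genes. The median log2 fold change of the 7 was 0.65, beside 0.0067 over all genes. Fkbp5, Tsc22d3 and Klf9 were higher without DN replicate 3 as well, with log2 fold changes of 1.03, 1.11 and 0.72. Those of Zbtb16, Nr3c1 and Hsd11b1 were then 1.44, 0.33 and -0.12, and 0 of the 7 passed the adjusted threshold by edgeR.

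**Figure D2:**
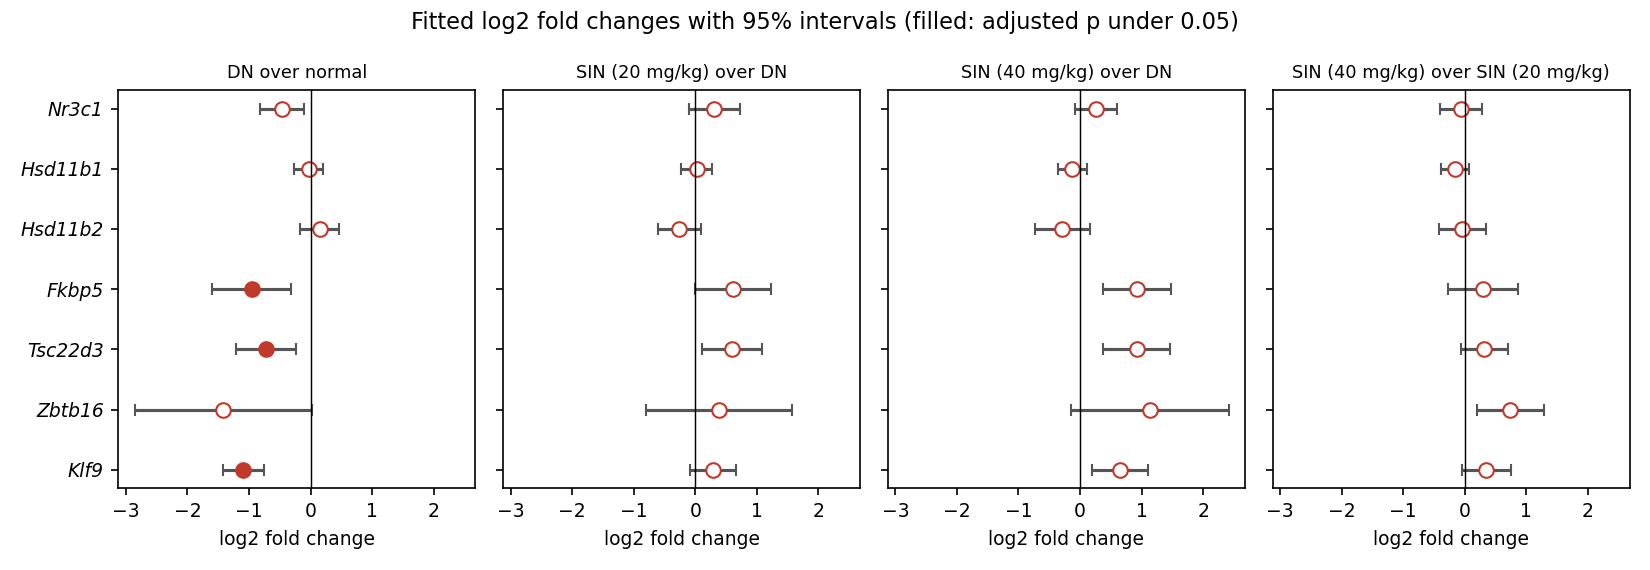
Fitted log2 fold changes (horizontal axis) of the 7 genes in 4 comparisons, with 95% intervals as bars; filled points have an adjusted p under 0.05. Only Klf9, Fkbp5 and Tsc22d3 in DN over normal are filled, while the intervals of Fkbp5, Tsc22d3 and Klf9 in SIN (40 mg/kg) over DN lie above 0 with adjusted p of 0.195, 0.188 and 0.204.

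The doses were compared with each other directly. Zbtb16 was higher in 3 of the 4 SIN (40 mg/kg) rats than in any SIN (20 mg/kg) rat, with a log2 fold change of 0.74 ± 0.25 (SE), an unadjusted p of 0.013 and an adjusted p of 0.961 by edgeR. The values for the other targets were 0.29 ± 0.26 for Fkbp5, 0.31 ± 0.17 for Tsc22d3 and 0.35 ± 0.18 for Klf9, none with an unadjusted p under 0.05. The 95% intervals, from -0.27 to 0.86 for Fkbp5 and from -0.07 to 0.69 for Tsc22d3, included both no difference and a sizeable one. By the quasi-likelihood test of edgeR, 0 of the 7 were called at an adjusted p under 0.05, where 0.00639% of 15657 genes, a single gene, were, and DESeq2 and edgeR's exact test called 0 of the 7 too. At an unadjusted p under 0.05, 1 was higher, against 2.41% of all genes, and 0 lower, against 2.57%. No member separated the doses without overlap, and 3.31% of all genes did. Their median log2 fold change was 0.29, beside -0.0069 over all genes. Without SIN (40 mg/kg) replicate 1 the unadjusted count was 3, Tsc22d3, Zbtb16 and Klf9, and without SIN (20 mg/kg) replicate 2 it was 2, Fkbp5 and Zbtb16. Zbtb16 itself had log2 fold changes of 0.48 to 0.92 over all alternatives, with unadjusted p of 0.000997 to 0.186 by edgeR or DESeq2.

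Treated rats were finally set beside the normal group, which shares neither the STZ nor the diet with them. Klf9 was lower at 20 mg/kg, at 57.4% of the normal mean with no overlap between the groups, and its log2 fold change was -0.80 ± 0.12 (SE), adjusted p = 0.00499 by edgeR. At 40 mg/kg it was at 73.3% of the normal mean, with 3 of 4 rats below every normal rat, a log2 fold change of -0.45 ± 0.16 (SE), an unadjusted p of 0.0174 and an adjusted p of 0.126 by edgeR. Without SIN (40 mg/kg) replicate 4 that log2 fold change was -0.62, with an adjusted p of 0.0247 by edgeR. Over all alternatives it ran from -0.62 to -0.33, with adjusted p of up to 0.267 by edgeR or DESeq2. The order of mean Klf9 levels was thus normal, SIN (40 mg/kg), SIN (20 mg/kg) and DN, and no pair of neighbours in this order passed the adjusted threshold.

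For Fkbp5 the means were 66.1 ± 24.2 CPM (SD, n = 4) in normal rats, 34.0 ± 10.7 in DN rats, 52.4 ± 18.8 at the lower SIN dose and 64.5 ± 17.0 at the higher. SIN (40 mg/kg) rats were thus at 97.5% of the normal mean, but the 95% interval of the log2 fold change between them ran from -0.63 to 0.54. Tsc22d3 was at 91.7% and 114% of the normal mean at the lower and higher dose, with intervals of -0.44 to 0.19 and -0.18 to 0.57. Zbtb16 was at 48.7% and 81.5% of it. At the lower dose the log2 fold change of Zbtb16 from normal was -1.04 ± 0.38 (SE), with an unadjusted p of 0.0208 and an adjusted p of 0.148 by edgeR, and without normal replicate 4 it was -1.34 with an adjusted p of 0.00797. Over all alternatives it ran from -1.34 to -0.80, with adjusted p of up to 0.317 by edgeR or DESeq2. Nr3c1 was at 72.3% of the normal mean without SIN, at 89.9% with 20 mg/kg and at 86.5% with 40 mg/kg. Against normal, 1 of the 7 genes was called at an adjusted p under 0.05 at 20 mg/kg, where 6.36% of 15877 genes were, and 0 at 40 mg/kg by the quasi-likelihood test of edgeR, by DESeq2 and by edgeR's exact test, where the first called 5.97% of 15735 genes. Unadjusted counts at 20 mg/kg were 2 lower against 10.6% of all genes and 0 higher against 10.2%, and at 40 mg/kg 1 lower against 11.5% and 0 higher against 11.4%. Groups did not overlap for 1 of 7 at 20 mg/kg, against 13.7% of all genes, and for 0 of 7 at 40 mg/kg, against 14.3%. The median log2 fold change of the 7 was -0.15 at 20 mg/kg and -0.17 at 40 mg/kg, beside 0.0029 and 0.0050 over all genes.

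Clock genes moved with the groups as well. A clock phase score was the difference in mean log2 CPM between 10 genes peaking with Dbp and 5 peaking with Bmal1. It was -0.45 ± 0.34 (SD, n = 4) for normal rats, 1.10 ± 0.65 for DN rats, 2.62 ± 0.64 at 20 mg/kg SIN and 2.56 ± 0.27 at 40 mg/kg SIN. Normal rats ranged from -0.66 to 0.06 and DN rats from 0.61 to 2.02, so these groups did not overlap. Not every gene moved with the score. At either dose over DN, 9 of the 10 genes peaking with Dbp were higher and 3 of the 5 peaking with Bmal1 lower. Nr1d1, of the 10, had a mean of 73.1 CPM in DN rats and 46.1 and 57.5 CPM at 20 and 40 mg/kg. Cry1, of the 5, was at 8.06 CPM in normal rats, 10.4 in DN rats and 14.4 and 14.5 CPM at the lower and higher dose. DN replicate 3 had the highest score of its group and, together with DN replicate 1, the higher Fkbp5, Tsc22d3 and Zbtb16. The mean score was lowest in normal rats, higher in DN rats and higher again in both SIN groups. Mean Fkbp5, Tsc22d3, Zbtb16 and Klf9 were lower in the DN group than in each of the other groups. The part of the clock phase in these levels was not tested.

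**Figure D3:**
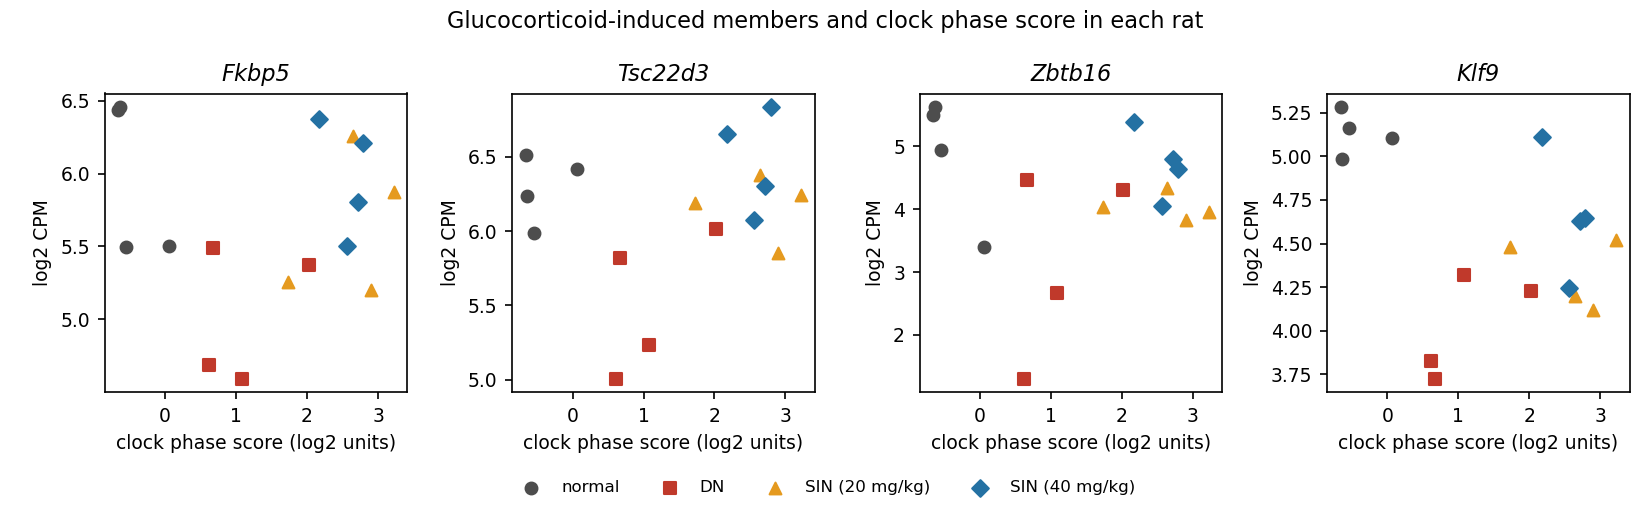
Levels of Fkbp5, Tsc22d3, Zbtb16 and Klf9 in log2 CPM (vertical axes, not from 0) against the clock phase score in log2 units (horizontal axes), each point 1 of 16 rats. Normal rats lie at scores of 0.06 or less, DN rats between 0.61 and 2.02 and SIN rats at 1.73 or more, and the DN rats have the lowest mean of each gene.

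The machinery that serves the receptor was represented by 10 genes, Nr3c2, H6pd, Fkbp4, Hsp90aa1, Hsp90ab1, Ptges3, Stip1, Ncoa1, Ncoa2 and Ncor1. In the DN group 2 of the 10 fell and 0 rose by edgeR's adjusted p, where 19.5% of all genes tested were called in either direction. All 10 had negative log2 fold changes, with a median of -0.11. Ptges3, the p23 co-chaperone of the receptor complex, was lower by -0.34 ± 0.10 (SE, log2), adjusted p = 0.0462 by edgeR, and Ncor1, a corepressor, by -0.38 ± 0.11, adjusted p = 0.037. The same 2 genes were called without DN replicate 3, where 9 of the 10 log2 fold changes were negative, with a median of -0.094. Over DN none of the 10 passed the adjusted threshold by edgeR at either dose, with or without that rat. Fkbp4, the co-chaperone that favours ligand binding and competes with Fkbp5, was lower than in DN at both doses without overlap, at -0.26 ± 0.10 and -0.32 ± 0.10 (SE, log2), with unadjusted p of 0.0208 and 0.0117 by edgeR. Those comparisons share the same DN rats. Of the 10 genes, 1 did not overlap at 20 mg/kg and 2 at 40 mg/kg, beside 8.99% and 10.4% of all genes. At an unadjusted p under 0.05, 6.24% and 7.21% of all genes were lower. Against the normal group Fkbp4 fell at both doses, by 0.38 ± 0.092 and 0.45 ± 0.10 (SE) on the log2 scale, with adjusted p of 0.0365 and 0.0335 by edgeR, and it was the only one of the 10 called there. Over all genes tested, 6.36% were called against normal at 20 mg/kg and 5.97% at 40 mg/kg. At 20 mg/kg Ptges3 was higher than in DN at an unadjusted p under 0.05, as were 9.2% of all genes. At 40 mg/kg Ncoa2 and Ncor1 were, as were 9.9% of all genes. H6pd, which supplies Hsd11b1 with NADPH, had a log2 fold change of -0.0013 ± 0.10 (SE) in DN over normal.

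Other known glucocorticoid-induced genes moved in both directions in the DN group. The list held 17 genes, of which 16 were tested and Tat was removed by the filter. In DN over normal 2 rose and 2 fell by edgeR's adjusted p, and 3 were higher and 5 lower at an unadjusted p under 0.05, with a median log2 fold change of -0.16. Over all genes tested, 19.5% were called by the adjusted p in either direction. At the unadjusted threshold 17.5% of all genes were higher and 19.4% lower. Pdk4, which blocks glucose oxidation, fell by 1.35 ± 0.27 (SE) on the log2 scale, and Angptl4, an inhibitor of lipoprotein lipase, by 1.75 ± 0.21, with adjusted p of 0.0135 and 0.0032 by edgeR. Mt1, a metallothionein, was higher by 1.09 ± 0.18 and Igfbp1, which binds insulin-like growth factors, by 0.78 ± 0.24, with adjusted p of 0.0067 and 0.0456. Several of these genes also answer to insulin, fatty acids or metals. Sgk1, a kinase that raises sodium transport, was at -0.51 ± 0.19 (SE, log2), adjusted p = 0.0768 by edgeR, and Pck1, a gluconeogenic enzyme, at -0.75 ± 0.24, adjusted p = 0.0501. Anxa1 was lower and Mt2A higher at an unadjusted p under 0.05 alone. Without DN replicate 3, 1 rose and 3 fell, since the adjusted p of Igfbp1 became 0.092 and that of Sgk1 0.0498 by edgeR.

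Over DN none of these 16 genes passed the adjusted threshold by edgeR at either dose, with or without DN replicate 3. At 20 mg/kg 2 were higher and 1 lower at an unadjusted p under 0.05, and at 40 mg/kg 4 were higher and 1 lower, or 0 lower without that rat. Of all genes tested, 9.2% were higher and 6.24% lower at 20 mg/kg, and 9.9% and 7.21% at 40 mg/kg. Sgk1 was higher at both doses, by 0.40 ± 0.15 and 0.59 ± 0.18 (SE, log2), with unadjusted p of 0.0206 and 0.0094 by edgeR. Pck1 was higher at 20 mg/kg, by 0.69 ± 0.20, and its groups did not overlap, as for 8.99% of all genes tested. At 40 mg/kg Per1, a clock gene that is also in the phase score, was higher by 0.66 ± 0.24, Errfi1, a brake on the EGF receptor, by 0.69 ± 0.23, and Igfbp1 by 0.71 ± 0.23. Igfbp1 had been higher in DN than in normal already. Mt1 was lower at both doses, by -0.53 ± 0.16 and -0.52 ± 0.21. The median of the 16 was -0.11 at 20 mg/kg and 0.19 at 40 mg/kg. Between the doses Per1, Nfkbia and Igfbp1 were higher at 40 mg/kg at an unadjusted p under 0.05, 3 of 16, and none was lower. Of all genes tested, 2.41% were higher and 2.57% lower.

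The 9 genes followed in the aldosterone-sensitive distal nephron, where Hsd11b2 guards the mineralocorticoid receptor, were Nr3c2, Sgk1, Scnn1a, Scnn1b, Scnn1g, Nedd4l, Slc12a3, Kcnj1 and Fxyd4. Nr3c2 and Sgk1 stand in the earlier lists too. In the DN group Scnn1a, the alpha subunit of the epithelial sodium channel, rose by 0.69 ± 0.15 (SE, log2), adjusted p = 0.0165 by edgeR, without overlap, and 0 of the 9 fell. Over all genes tested, 19.5% were called in either direction and 24.3% did not overlap. Scnn1a was also called without DN replicate 3, and 1 of the 9, Sgk1, then fell, as given above. Scnn1b, its beta subunit, was higher by 0.32 ± 0.12 and Slc12a3, the thiazide-sensitive cotransporter, lower by -0.46 ± 0.17, both at an unadjusted p under 0.05 alone. The median of the 9 was 0.015 in DN over normal, -0.045 in SIN (20 mg/kg) over DN and 0.25 in SIN (40 mg/kg) over DN, where 0 of the 9 passed the adjusted threshold by edgeR at either dose. When DN replicate 3 was left out, these medians were 0.014, -0.096 and 0.11, again with 0 of the 9 called over DN. Scnn1b was lower at 20 mg/kg by -0.38 ± 0.13, unadjusted p = 0.014 by edgeR. Between the doses Scnn1b, Scnn1g and Slc12a3 were higher at 40 mg/kg at an unadjusted p under 0.05, as were 2.41% of all genes.

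**Figure D4:**
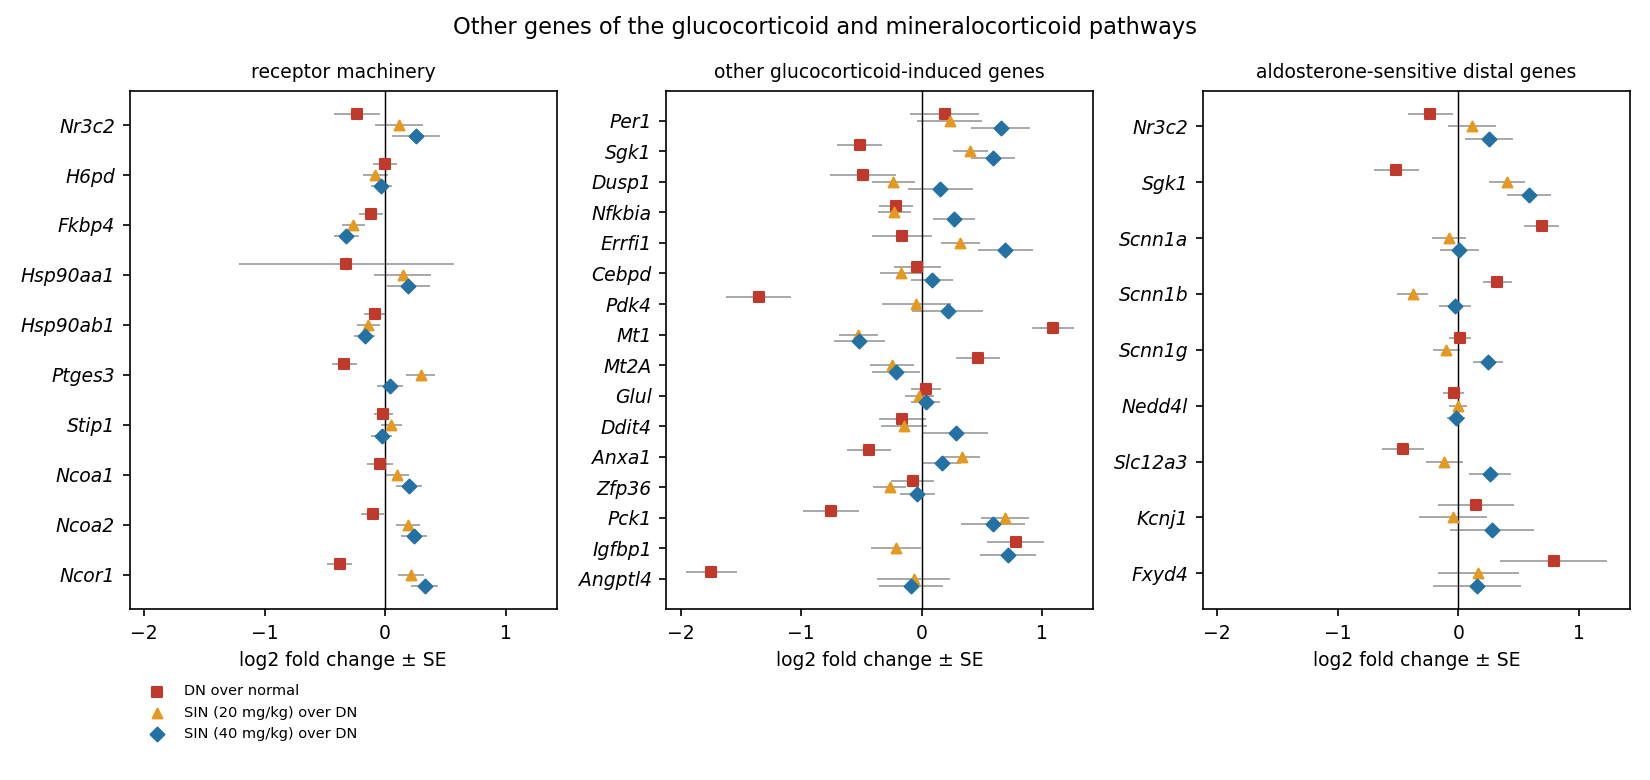
Log2 fold changes with SE (horizontal axes) of receptor machinery, other glucocorticoid-induced genes and genes of the aldosterone-sensitive distal nephron in DN over normal (squares), SIN (20 mg/kg) over DN (triangles) and SIN (40 mg/kg) over DN (diamonds), 4 rats a group. Angptl4 and Pdk4 are lowest and Mt1 highest in DN over normal, and Nr3c2 and Sgk1 appear in 2 panels.

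Across the 16 rats, Fkbp5, Tsc22d3 and Zbtb16 varied together. Among 16404 genes kept over the 4 groups, Tsc22d3 and Zbtb16 ranked 2 and 3 among the genes most like Fkbp5 in log2 CPM, with Pearson correlations of 0.857 and 0.834, and 0.739 and 0.723 for deviations from the group means. Frmd4b was the most like Fkbp5, at 0.874, and ranked 2 for Zbtb16, at 0.882, behind Rapgef5 at 0.890. Tsc22d3 was nearest to Fkbp5, then to Ranbp9 at 0.849 and Bub1b at 0.844. Klf9 was less close to this trio. Its correlation over all rats was 0.574 with Fkbp5, 0.616 with Tsc22d3 and 0.595 with Zbtb16, and within groups 0.161, 0.345 and 0.226. Its nearest genes were Nexmif at 0.944, Dennd11 at 0.933 and LOC100910732 at 0.928. Nr3c1 was nearest to Zhx1 at 0.975, Tcea1 at 0.966 and Zzz3 at 0.960. Its correlation with Fkbp5 was 0.110 over all rats and -0.446 within groups, and with Klf9 0.672 and 0.501. Hsd11b2 was nearest to Eef2kmt at 0.898, Ctf1 at 0.851 and Imp3 at 0.834, and its correlation with Tsc22d3 was -0.626. For Hsd11b1 the only nearest gene with a symbol was RGD1565033, at 0.833. These values describe 16 rats that share group differences, depth and library composition, and carry no test.

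Markers of other cell types were also followed, since many cells express the targets. Leukocyte markers (Ptprc, Cd68 and Cd3e) summed to 16.2 to 29.5 CPM in normal rats, 16.3 to 18.3 in DN rats, and 15.0 to 24.98 and 12.04 to 23.8 at the lower and higher dose of SIN. In DN over normal 1 of the 3, Ptprc, fell, with a log2 fold change of -0.81 ± 0.22 (SE) and an adjusted p of 0.0328 by edgeR. In that comparison 19.5% of all genes tested were called in either direction. Of 6 markers of the adrenal cortex, 4 matched the table, Star, Cyp11a1, Cyp21a1 and Mc2r, and summed to between 0.484 and 3.19 CPM in all 16 rats. The adipocyte list (Adipoq, Plin1, Cidec and Lep) summed to 59.4 to 66.7 CPM in the normal group and 83.7 to 126 CPM in the DN group, and Cidec, which rose, gave most of it. The 2 podocyte markers (Nphs1 and Podxl) summed to 249 to 320 CPM in the normal group and 188 to 302 CPM in the DN group, and 3 fibroblast markers (Lum, Dcn and Col1a1) to 127 to 187 and 148 to 249 CPM. The fibroblast sum of 249 CPM was that of DN replicate 3. In DN over normal Col1a1 rose by 1.08 ± 0.27 (SE, log2), adjusted p = 0.0262 by edgeR. Dcn went the other way, at -0.48 ± 0.22, unadjusted p = 0.0493 by edgeR. No marker was at 0 in all rats. Their part in the levels of the 7 genes was not tested.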

How the data were processed

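Renal RNA of 16 rats was sequenced. The authors enriched mRNA with oligo(dT), aligned trimmed Illumina reads to the Rnor_6.0 rat genome with TopHat, and deposited a table of expected counts per gene, not normalized. The submitters' processing notes also name RSEM, Bowtie and edgeR. Of the nonzero values 74.3% were whole, and all were rounded. A further 4 per-sample columns, named in no sample record, and 5 columns of the authors' group means were not used. Such a count splits reads between similar transcripts, which can shift genes with close copies.

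The whole table was fitted with edgeR 4.0.16 (quasi-likelihood test, two-sided; TMM; filterByExpr) in R 4.3.3, 1 fit per comparison on 8 rats, with Benjamini-Hochberg adjustment over all genes tested. Log2 CPM used a prior count of 2. Beside 4 comparisons of the design, 2 with the normal group were added after seeing the data. P-values set each group difference against the spread between these rats. The steps were tested on simulated data. Some genes of the pathway and marker lists are not reported here and were left out of their lists' counts, medians and sums. Named genes are the 7 members, list genes with an unadjusted p under 0.05 in a comparison, and the 3 genes most correlated with each member; H6pd, Tat and the marker genes were named in addition. Members and lists, including the clock genes (Bhlhe41, Ciart, Dbp, Hlf, Nr1d1, Nr1d2, Per1, Per2, Per3 and Tef against Arntl, the gene of Bmal1, Clock, Cry1, Nfil3 and Npas2), were chosen with earlier results of these data known. Alternatives were DESeq2 1.42.0, edgeR's exact test, RLE normalization, a filter of at least 10 counts per rat or none at all, the replicate block, 1 fit over all 16 rats, and leaving out each rat; for the pathway lists, only DN replicate 3 was left out, chosen after seeing the data. Promoter windows were read with Python 3.11.15.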

Additional observations from a re-analysis of the deposited data

Results flagged for a closer look

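Of 28 sets of 4 rats, 7 genes in 4 groups, 1 held a rat far from the others. Nr3c1 was at 31.8 CPM in DN replicate 1, and the other 3 DN rats were between 47.9 and 50.7 CPM. The gap took a share of 0.853 of the group's range, above Dixon's 95% critical value, and chance alone flags about 5% of such sets. Without this rat the log2 fold change of Nr3c1 in DN over normal was -0.33, with an adjusted p of 0.111 by edgeR's quasi-likelihood test.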

How the results depend on the processing

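The number of members called in DN over normal, 3 by the quasi-likelihood test, was between 1 and 2 when single rats were left out, and Klf9 was among them each time; only Klf9 was called without normal replicate 1, 3 or 4 or DN replicate 1, 2 or 4. In SIN (40 mg/kg) over DN, 0 became 2 (Fkbp5 and Tsc22d3) by DESeq2 and 2 by edgeR's exact test. In SIN (20 mg/kg) over normal, 1 became 2 by DESeq2 and was 1 to 2 without single rats (2 without normal replicate 4), and in SIN (40 mg/kg) over normal 0 became 0 to 1 (1 without SIN (40 mg/kg) replicate 4). The replicate numbers did not pair the rats, since deviations of same-numbered rats correlated between -0.239 and 0.244. With the replicate block, 2 members (Zbtb16 and Klf9) were called in DN over normal, and the other comparisons' counts did not change. The direction of 16 of 630 refitted log2 fold changes reversed, all of them small and when a rat was left out: Hsd11b1 (-0.097 to 0.028 in DN over normal, -0.037 to 0.088 in SIN (20 mg/kg) over DN, -0.048 to 0.056 in SIN (20 mg/kg) over normal), Hsd11b2 (-0.16 to 0.11 between doses, -0.27 to 0.0034 in SIN (40 mg/kg) over normal), Nr3c1 (-0.14 to 0.10 between doses) and Fkbp5 (-0.19 to 0.13 in SIN (40 mg/kg) over normal). The cause was not tested. With 4 rats a group, an interval that includes 0 does not exclude a difference of any size within it.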
